A study of Mus musculus with 4 samples.

Results

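Mll1-/- and wild-type (Mll1+/+) mouse embryonic fibroblasts (MEFs) were compared in the TNF-treated state, with weight on the genes whose products are secreted or sit on the cell surface. Both cell types were grown in DMEM with 10% FBS. The wild-type group and the Mll1-/- group with TNF received TNFa at 10 ng/ml for 4 hr, and the 2 control groups received control solution. The dose is the one given by the agent label and the design text, and the treatment protocol prints the same figure in another unit. Each treatment was made 3 times and the cells were mixed, so each of the 4 groups is 1 sequenced library, and no spread between replicates and no test between groups exists. The labels call both cell types MEF and do not say how many embryos or clones they came from or which part of Mll1 was removed. Differences between the 2 cell cultures other than Mll1 therefore cannot be told apart from genotype.

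Genes were taken from the transcript table where an entry reached at least 1 RPKM (reads scaled to transcript length and library size) in at least 1 of the 2 TNF libraries. Each gene symbol was represented by its entry with the highest mean. This left 10984 of the 16612 symbols in the table. Of 816 symbols on 26 lists of secreted and surface proteins, 385 were measured in this way, 330 were under 1 RPKM in both TNF libraries and 101 matched no entry. A gene was called higher or lower when the log2 ratio of Mll1-/- to wild type, with 0.5 RPKM added to both values, was at least 1 in size. Beside folds of RPKM stand exact 95% intervals of the read ratio, which cover counting error only.

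TNF binds receptors on the fibroblast surface and releases NF-kB, a family of transcription factors that switches on genes for chemokines, cytokines, adhesion molecules and acute-phase proteins. Through these products an inflamed fibroblast calls in leukocytes, holds them on its surface and remodels the matrix around it. Mll1, also named Kmt2a, is a methyltransferase that marks histone H3 on lysine 4 near the start of many genes, among them developmental genes. The comparison addresses how the secreted and surface repertoire of TNF-treated fibroblasts differed in cells labelled as lacking this enzyme.

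Promoter sequences show what lies upstream of genes at both ends of the comparison. RefSeq windows on GRCm38.p6, covering the 250 bases before the annotated start, are printed for the chemokines Ccl20 and Cxcl1 (lower in Mll1-/-), for the receptor Tlr2 (higher) and for the chemokine Cxcl12 (higher). They read 5′ to 3′ on the gene's strand in lower case, and capitals mark a stretch that matches the NF-kB consensus on either strand. The windows are chr1:83116516-83116765 (plus strand) for Ccl20, chr5:90890995-90891244 (plus) for Cxcl1, chr3:83841609-83841858 (minus) for Tlr2 and chr6:117168285-117168534 (plus) for Cxcl12.
Ccl20: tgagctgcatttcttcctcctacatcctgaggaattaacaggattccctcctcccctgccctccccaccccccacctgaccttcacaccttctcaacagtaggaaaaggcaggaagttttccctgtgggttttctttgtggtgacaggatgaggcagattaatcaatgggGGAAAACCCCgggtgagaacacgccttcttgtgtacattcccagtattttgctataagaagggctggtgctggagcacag
Cxcl1: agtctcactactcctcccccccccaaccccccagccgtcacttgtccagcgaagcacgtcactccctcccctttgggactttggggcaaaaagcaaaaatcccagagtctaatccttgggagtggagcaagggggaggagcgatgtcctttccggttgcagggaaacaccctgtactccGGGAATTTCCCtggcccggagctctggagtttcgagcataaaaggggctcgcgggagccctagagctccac
Tlr2: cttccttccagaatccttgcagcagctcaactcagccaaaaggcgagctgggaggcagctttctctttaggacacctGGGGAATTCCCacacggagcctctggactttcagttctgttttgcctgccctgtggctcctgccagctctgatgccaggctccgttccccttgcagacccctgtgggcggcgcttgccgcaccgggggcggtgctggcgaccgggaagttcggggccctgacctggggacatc
Cxcl12: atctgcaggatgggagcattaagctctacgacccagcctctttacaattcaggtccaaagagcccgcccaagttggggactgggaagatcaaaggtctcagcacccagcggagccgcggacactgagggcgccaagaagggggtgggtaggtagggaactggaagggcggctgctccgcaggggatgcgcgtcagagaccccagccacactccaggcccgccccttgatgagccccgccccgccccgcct
The matching stretch begins 80 bases before the start in Ccl20, 71 in Cxcl1 and 173 in Tlr2, and no match was found in the Cxcl12 window. Among secreted and surface genes with a window, 8 of 74 higher genes (10.8%), 3 of 32 lower genes (9.38%) and 20 of the 172 others (11.6%) held a match. The share was 5.29% of the 8766 measured genes with a window, a gene being counted if any of its windows matched. Counted per window instead of per gene, it was 3.9% of all 32851 windows in the table. CG dinucleotides numbered 2 in the Ccl20 window, 10 in Cxcl1, 11 in Tlr2 and 14 in Cxcl12. Their median was 7.5 for the lower genes, 13 for the higher genes, 14 for the other secreted and surface genes and 18 for all measured genes. A match describes the letters of these windows and not a site in use.

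The libraries held 27977248 reads in wild type with TNF, 19306506 in Mll1-/- with TNF, 27728647 in the wild-type control and 20081869 in the Mll1-/- control, as recovered from the RPKM values. Kmt2a itself stood at 2.11 RPKM in wild type with TNF and 1.66 in Mll1-/- with TNF, and at 1.85 and 2.02 in the controls. Its transcript was thus still counted in the libraries labelled Mll1-/-, and since the removed part is not given, this value does not check the label. Fibroblast markers were present in both TNF libraries, with vimentin (Vim) at 2224 RPKM in wild type against 2097 in Mll1-/-. Of 10 fibroblast markers with an entry, Acta2 (smooth muscle actin), a marker of contractile fibroblasts, was past the size rule, at 87.3 and 189 RPKM, 2.17-fold higher (2.08 to 2.25). Tagln, another gene of contractile fibroblasts, was near the floor at 1.10 and 0.588 RPKM. Of 14 leukocyte markers 8 had an entry, and all 8 were under 1 RPKM with TNF, summing to 1.42 RPKM in wild type and 1.47 in Mll1-/-. Ptprc, Cd3e, Adgre1, Cd68, Tyrobp and Laptm5 had no entry. Of 8 endothelial markers 3 had an entry: Egfl7 stood at 2.06 and 6.28 RPKM, and Sox18 and Plvap were below 0.2. Emcn, Cldn5, Robo4, Erg and Tal1 had none, so these 2 cell types were checked only in part. Of 11 epithelial markers 9 had an entry, of which Krt19 stood at 41.5 RPKM in wild type against 21.2 in Mll1-/- and the other 8 were under 1. Muscle and fat markers, of which 6 of 9 had an entry, summed to 16.4 and 13.3 RPKM, mostly Pparg at 14.6 and 8.34 RPKM. Des (desmin), a muscle filament protein, stood at 0.975 and 2.995 RPKM, 3.07-fold higher (2.24 to 4.26). Actc1 (0.489 and 0.969 RPKM) and Fabp4 (0.277 and 0.962) were under the floor. The part of these other-cell transcripts in the results was not tested.

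With TNF, 108 of the 385 secreted and surface genes (28.1%) were higher in Mll1-/- and 42 (10.9%) were lower. Over all measured genes 790 were higher (7.19%) and 495 lower (4.51%). The lists were chosen with earlier results of these data known, so the contrast with all genes cannot be separated from that choice. The median log2 ratio was 0.23 for the secreted and surface genes and -0.04 for all genes, of which the middle 95% lay between -1.44 and 2.01. All 150 higher or lower secreted and surface genes had a counting interval that left out a ratio of 1. Over all measured genes this held for 777 of the 790 higher and 489 of the 495 lower genes. The size rule was applied to the same reads, so these intervals give no separate support. The summed level of all 385 secreted and surface genes was nearly equal, at 17810 RPKM in wild type against 17800 in Mll1-/-. In libraries of bulk RNA, fewer cells making a transcript and less transcript per cell cannot be told apart.

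**Figure D1:**
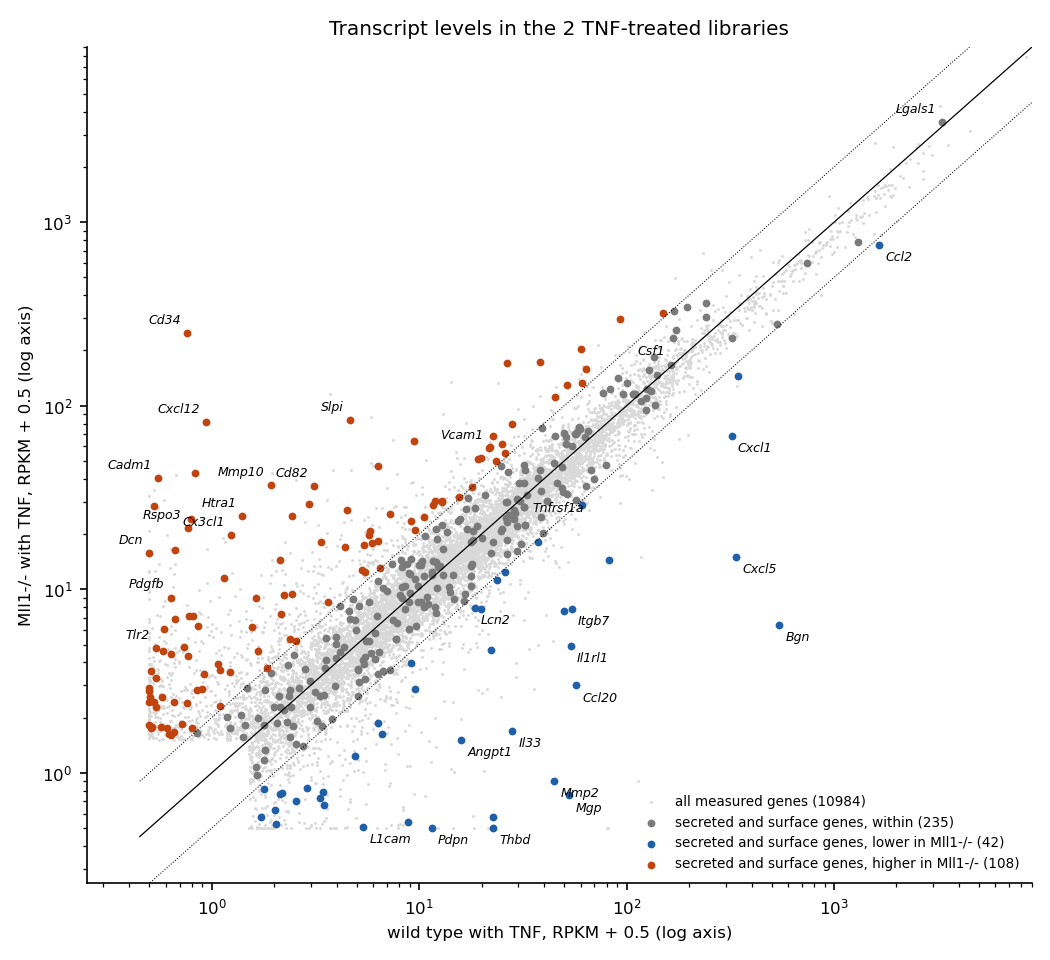
Each point is a gene, placed by its RPKM plus 0.5 in wild type with TNF (horizontal, log axis) and in Mll1-/- with TNF (vertical, log axis). Grey background points are all 10984 measured genes, coloured points are the 385 secreted and surface genes (orange higher in Mll1-/-, blue lower, dark grey neither), the solid line is equality and dotted lines mark a log2 ratio of 1 either way. Cd34 and Cxcl12 stand far above the line and Bgn and Cxcl5 far below it, while Lgals1 and Csf1 lie on it.

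Lists were labelled as a whole, so a list labelled secreted can hold a gene such as Cx3cl1, whose product is tethered to the membrane. On the lists labelled secreted, 37 of 144 genes were higher and 22 lower. On the lists labelled surface, 42 of 155 were higher and 14 lower. On the lists that hold both kinds, 29 of 86 were higher and 6 lower. Among single lists, the CXC chemokines had the lowest median log2 ratio (-1.31 over 4 genes). The chemokine receptors had the highest (1.05 over 2 genes), followed by the innate pattern receptors (0.73 over 10). Lists with a higher gene and no lower one were the complement list (3 of 10 higher), the Adam and Adamts proteases (6 of 20), the basement membrane proteins (3 of 14), the TNF superfamily receptors (3 of 12) and the chemokine receptors (1 of 2). None of the 4 measured TNF superfamily ligands and none of the 3 insulin-like growth factor binding proteins passed the rule either way. On the MHC class I list no gene was higher. Over all measured genes 7.19% were higher and 4.51% lower, so short lists without a lower or a higher gene are not unusual. With a pseudocount of 0.1 RPKM, the complement list, the Adam and Adamts proteases and the TNF superfamily ligands each held 1 lower gene.

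**Figure D2:**
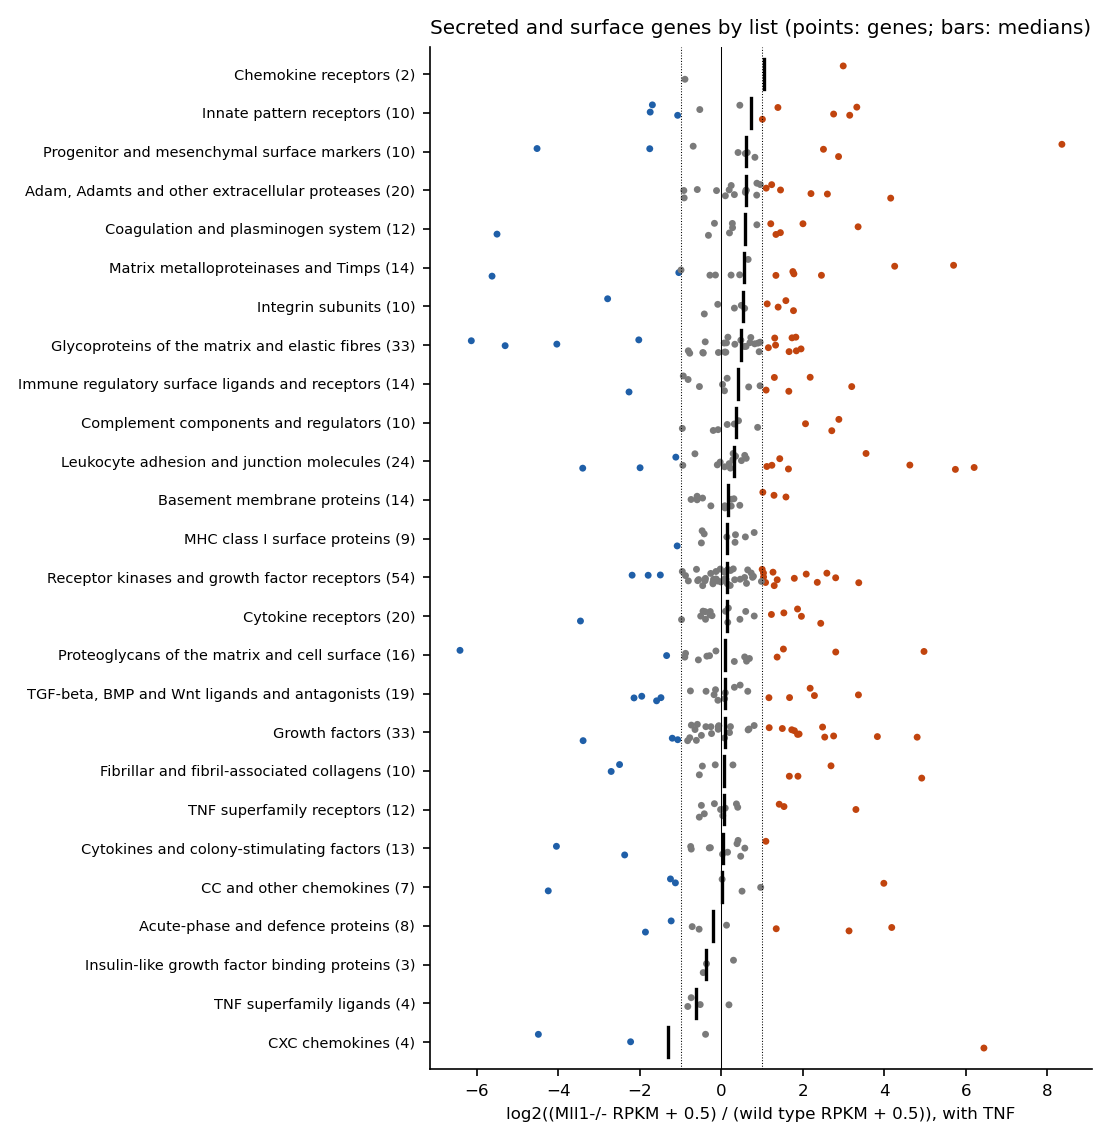
Each point is 1 secreted or surface gene with TNF, placed by the log2 ratio of Mll1-/- to wild type (0.5 RPKM added to each), in rows by list with the number of measured genes in brackets. Black bars are list medians, dotted lines mark -1 and 1, and the vertical spread within a row carries no value. The CXC chemokine row has the lowest median, and most rows hold genes on both sides of the dotted lines.

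Of 4 measured CXC chemokines 2 were lower and 1 higher in Mll1-/-, and of 7 CC and other chemokines 3 were lower and 1 higher. The lower ones attract neutrophils, monocytes and lymphocytes. With TNF, the median log2 ratio was -0.18 among the shortest measured transcripts and 0.01 among the longest. With this trend removed, 2 of the 7 CC and other chemokines were lower and 2 higher, and the CXC counts were unchanged. The lean to lower on the CC and other list thus depended on this setting. These counts do not name the genes that crossed the size rule. In what follows, the values in both control libraries are given in brackets, wild type first. Ccl20, which draws CCR6-bearing lymphocytes and dendritic cells, stood at 56.3 RPKM in wild type against 2.49 in Mll1-/- with TNF (controls 1.69 and 0.292), which is 22.6-fold lower (interval 16.6 to 31.7). Cxcl5, a neutrophil attractant, stood at 338 and 14.6 RPKM (controls 24.99 and 1.99), 23.2-fold lower (21.2 to 25.5). Cxcl1, another neutrophil attractant, stood at 319.9 and 68.0 RPKM (controls 18.6 and 9.14), 4.71-fold lower (4.44 to 4.997). For all 3, the TNF-treated wild-type library was the highest of the 4.

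The monocyte attractants differed less. Ccl2 was the most abundant chemokine in both TNF libraries, at 1643 RPKM in wild type against 752 in Mll1-/- (controls 434 and 255), 2.19-fold lower (2.14 to 2.23). Ccl7 stood at 343 and 144 RPKM (controls 98.8 and 55.4), 2.38-fold lower (2.28 to 2.49). Cxcl10, an attractant of activated T cells, stood at 5.38 and 4.00 RPKM and did not pass the size rule. Ccl9 was close to equal, at 17.3 RPKM in wild type against 17.5 in Mll1-/-. Cxcl2, a further neutrophil attractant, was under the level floor, with 15 reads in wild type and 0 in Mll1-/-.

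The 2 higher chemokines were Cxcl12 and Cx3cl1. Cxcl12, which retains progenitor cells and lymphocytes, stood at 0.438 RPKM in wild type against 81.1 in Mll1-/- (controls 0.672 and 90.8), 185-fold higher (123 to 293). Cx3cl1, a chemokine tethered to the membrane by a mucin stalk, stood at 0.739 and 19.2 RPKM (controls 0.310 and 12.2), 25.9-fold higher (20.2 to 33.8). Ccl25, an attractant of gut-homing lymphocytes, was just short of the size rule with a log2 ratio of 0.97. Summed over the measured genes, CXC chemokines came to 663.5 RPKM in wild type with TNF and 168 in Mll1-/-. The CC and other chemokines came to 2065 and 944 RPKM.

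**Figure D3:**
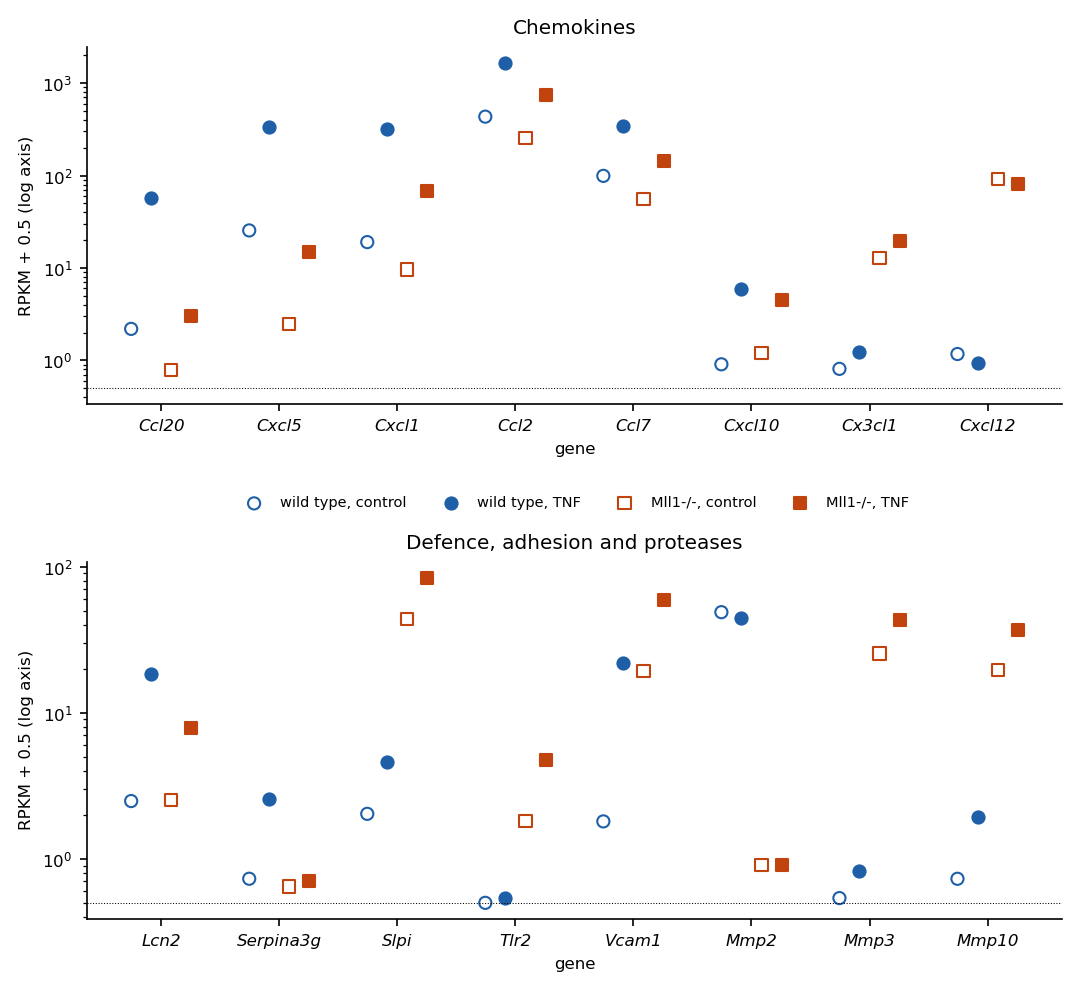
RPKM plus 0.5 (log axis) of 8 chemokines (top) and 8 defence, adhesion and protease genes (bottom) in the 4 libraries, 1 point per library: blue circles wild type, orange squares Mll1-/-, open for control and filled for TNF, with the dotted line at 0 RPKM. Ccl20, Cxcl5 and Cxcl1 are highest in wild type with TNF, whereas Cxcl12, Mmp3 and Mmp10 are high in both Mll1-/- libraries and Mmp2 in both wild-type libraries.

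Among 13 measured cytokines and colony-stimulating factors, 1 was higher and 2 were lower. Il33, an alarmin of the IL-1 family kept in the nucleus until cells are damaged, stood at 27.5 RPKM in wild type against 1.20 in Mll1-/- (controls 30.0 and 1.81), 23.02-fold lower (17.8 to 30.4). Il1rn, the soluble antagonist of the IL-1 receptor, stood at 2.96 and 0.168 RPKM (204 and 8 reads), 17.6-fold lower (8.76 to 41.3). Kitl, the ligand of the receptor Kit, was the gene above the size rule at 25.5 and 55.0 RPKM, 2.16-fold higher (2.07 to 2.25).

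The pleiotropic fibroblast cytokines stayed inside the size rule. Il6 stood at 4.998 RPKM in wild type against 2.76 in Mll1-/- (controls 1.23 and 1.10), with a fold of 0.553 (0.401 to 0.753). Csf1, the growth factor of macrophages, was nearly equal at 163.5 and 167 RPKM. Lif, a signal through the shared receptor Il6st, stood at 6.51 and 9.25 RPKM. Spp1 (osteopontin) stood at 1307 and 783 RPKM, and Mif, a macrophage regulator, at 737 and 600.4. Tnf itself had 1 read in wild type with TNF and 0 in Mll1-/-.

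The receptors of TNF differed from each other. Tnfrsf1a, the widely expressed TNF receptor with a death domain, stood at 32.5 RPKM in wild type against 32.0 in Mll1-/- with TNF (controls 35.1 and 36.0), a log2 ratio of -0.02. Tnfrsf1b, the TNF receptor without a death domain, stood at 2.46 and 28.7 RPKM (controls 1.97 and 27.3), 11.7-fold higher in Mll1-/- (10.4 to 13.1). Its 2 Mll1-/- values were both above its 2 wild-type values. Tnfrsf9, a costimulatory receptor, stood at 0.727 and 3.06 RPKM, 4.21-fold higher (2.96 to 6.11). Tnfrsf23, a decoy receptor for TRAIL, stood at 18.7 and 50.9 RPKM. It lies beside its close copy Tnfrsf22 (17.7 and 18.2 RPKM), so the split of reads between them is uncertain.

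Fas, the death receptor, stood at 9.72 RPKM in wild type against 13 in Mll1-/- with TNF (controls 2.45 and 3.69). The lymphotoxin receptor Ltbr stood at 38.3 and 33.99 RPKM. None of the 4 measured TNF superfamily ligands passed the size rule. Tnfsf10 (TRAIL) had the lowest ratio of them, at 2.05 and 0.943 RPKM, a log2 ratio of -0.82.

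Receptors of the IL-1 family diverged. Il1rl1, the receptor of Il33, stood at 53.3 RPKM in wild type against 4.40 in Mll1-/- (controls 24.9 and 2.46), 12.1-fold lower (10.7 to 13.8). Il1r1, the signalling receptor of IL-1, stood at 2.85 and 17.7 RPKM (controls 1.79 and 19.8), 6.20-fold higher (5.54 to 6.95). Il1rap, the accessory chain that both of these receptors use, stood at 3.87 and 16.6 RPKM, 4.28-fold higher (3.86 to 4.75). The receptor and the antagonist of IL-1 thus lay on opposite sides, with Il1r1 higher and Il1rn lower in Mll1-/-.

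Of 20 measured cytokine receptors, 5 were higher and 1, Il1rl1, was lower. Il13ra2, a decoy for IL-13, stood at 0.574 and 3.42 RPKM, and Il17ra, the shared IL-17 receptor chain, at 5.85 and 17.9. Il11ra1 stood at 3.13 and 8.0 RPKM. The most abundant of the list in Mll1-/-, the shared chain Il6st (62.4 and 67.1 RPKM) and the interferon gamma receptor Ifngr1 (44.7 and 67.9), did not pass the size rule. Lepr, the leptin receptor, lay just inside it with a log2 ratio of -0.98.

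Only 2 chemokine receptors were measured. Ackr3, which scavenges Cxcl12, stood at 0.0832 RPKM in wild type (6 reads) against 4.14 in Mll1-/- (206 reads), 49.8-fold higher (22.5 to 137). Cxcr4, the signalling receptor of Cxcl12, was under the floor at 0.0393 and 0.228 RPKM. Cxcr2, the receptor of Cxcl1 and Cxcl5, stood at 6.18 and 3.10 RPKM, a log2 ratio of -0.89.

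Cell adhesion and junction molecules held some of the largest differences, with 8 of 24 higher and 3 lower. Cadm1, an adhesion molecule of the immunoglobulin superfamily, stood at 0.0493 RPKM in wild type against 40.0 in Mll1-/- (6 and 3363 reads), 812-fold higher (373 to 2215). F11r (JAM-A), a tight-junction protein, stood at 0.0288 and 27.8 RPKM. With 2 reads in wild type, its ratio of 967 has an interval of 267 to 7989. Alcam, a ligand of CD6 on T cells, stood at 0.165 and 15.9 RPKM, 96.5-fold higher (64.1 to 153), and the tetraspanin Cd82 at 2.61 and 36.0, 13.8-fold higher (11.4 to 16.7). Vcam1, the ligand of leukocyte VLA-4, stood at 21.3 and 58.3 RPKM with TNF (controls 1.31 and 18.8). It was 2.74-fold higher (2.60 to 2.89), and its value in the Mll1-/- control was close to that of wild type with TNF.

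L1cam, an adhesion molecule first known from neurons, stood at 4.89 RPKM in wild type (723 reads) against 0.00980 in Mll1-/- (1 read), a wild type to Mll1-/- ratio of 499 with an interval of 89.3 to 19730. Jam2, a junctional molecule that binds leukocytes, stood at 4.40 and 0.730 RPKM, 6.03-fold lower (4.58 to 8.08). Selp (P-selectin), which lets leukocytes roll on vessel walls, was low in both libraries, at 1.28 and 0.320 RPKM. Cd44, the hyaluronan receptor, was abundant and higher in Mll1-/-, at 60.7 and 132 RPKM. The tetraspanins Cd81 (125 and 123 RPKM) and Cd151 (109 and 115.5) were nearly equal. Icam1, an adhesion ligand often used as a marker of TNF treatment, was listed under the floor at 0.141 and 0.122 RPKM.

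Cd34, a mucin-like surface protein used to mark blood and stromal progenitors, had the highest log2 ratio with 0.5 RPKM added (8.36), on a list with 3 of 10 genes higher and 2 lower. It stood at 0.261 RPKM in wild type (18 reads) against 249 in Mll1-/- (11858 reads), 955-fold higher (604 to 1611). Pdpn (podoplanin), a mucin of lymph node and inflamed fibroblasts, was the reverse, with 544 reads (10.99 RPKM) in wild type and 0 in Mll1-/-, at least 125-fold lower when 3 reads are taken for 0. Cspg4 (NG2), a pericyte proteoglycan, stood at 5.80 and 1.36 RPKM, 4.25-fold lower (3.67 to 4.94). Pdgfra, a receptor that marks mesenchymal progenitors, stood at 0.267 and 3.86 RPKM, 14.5-fold higher (10.8 to 19.8), while Pdgfrb stood at 13.1 and 19.9. The abundant Ly6a (Sca-1), at 195 and 346 RPKM, did not pass the size rule, and its reads may be shared with other Ly6 genes.

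Innate receptors differed in both directions, with 5 of 10 higher and 3 lower. Tlr2, which senses bacterial lipoproteins, had 3 reads in wild type with TNF (0.0373 RPKM) and 237 in Mll1-/- (4.27 RPKM), a ratio of 114.5 with an interval of 38.7 to 559. Its control values were 0 and 1.32 RPKM. The endotoxin receptor complex was split. Tlr4 stood at 8.45 and 11.8 RPKM, its partner Ly96 (MD-2) at 5.99 and 12.6, just past the size rule, and the co-receptor Cd14 at 25.6 and 11.9, 2.15-fold lower (1.90 to 2.43). The scavenger receptors Colec12 (8.98 and 63.6 RPKM) and Scara3 (0.651 and 11.03) were 7.07-fold and 16.95-fold higher. Clec2d, a ligand of natural killer receptors, stood at 9.10 and 2.36 RPKM, and Mrc1, the mannose receptor, at 1.53 and 0.127, both lower.

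Among surface ligands and receptors that T cells and natural killer cells read, 5 of 14 were higher in Mll1-/- and 1 was lower. Cd80, a costimulatory ligand of CD28 and CTLA4, was the lower gene of its list, at 21.8 RPKM in wild type against 4.14 in Mll1-/-, 5.27-fold lower (4.40 to 6.35). The NKG2D ligands Ulbp1 (44.8 and 111 RPKM), Raet1d (22.9 and 49.6) and H60b (0.263 and 1.90) were higher, and Raet1e (38.4 and 74.7) was just short of the rule. Reads of the Raet1 genes may be shared between copies. Cd24a, a small anchored sialoprotein, stood at 37.9 and 173 RPKM, 4.58-fold higher (4.35 to 4.82). Lilrb4a, an inhibitory receptor, stood at 0.277 and 6.64 RPKM, 23.98-fold higher (13.1 to 48.9).

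The galectin Lgals1 was the most abundant secreted or surface transcript of both TNF libraries, at 3320 RPKM in wild type against 3502 in Mll1-/-, and differed by a log2 ratio of 0.08. Lgals3 stood at 530 and 277 RPKM and Lgals9 at 69.4 and 39.2, both inside the size rule. On the MHC class I list, B2m, the common light chain, stood at 241 and 363.5 RPKM and H2-D1 at 11.6 and 20.7. The nonclassical H2-T23 was lower at 23.3 and 10.7 RPKM, 2.17-fold (1.89 to 2.497). H2 genes are near copies of each other, so the division of their reads is uncertain.

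Of the acute-phase and defence proteins, 3 of 8 were higher and 2 lower. Slpi, an inhibitor of neutrophil proteases, stood at 4.12 RPKM in wild type against 83.3 in Mll1-/- (controls 1.53 and 43.3), 20.2-fold higher (16.6 to 24.96). Tnfaip6, a hyaluronan-binding protein named for its induction by TNF, stood at 0.313 and 6.63 RPKM (controls 0.383 and 3.80), 21.2-fold higher (12.4 to 39.5). Lcn2, a bacterial siderophore trap, stood at 18.1 and 7.41 RPKM (controls 1.99 and 2.04), 2.44-fold lower (1.99 to 3.01). Its 2 control values were nearly equal. Serpina3g, a protease inhibitor of a large gene cluster whose copies may share reads, stood at 2.06 and 0.204 RPKM (controls 0.231 and 0.147), 10.1-fold lower (4.96 to 23.9). Saa3 (4.65 and 2.63 RPKM) and the pentraxin Ptx3 (48.8 and 33.3) were lower in value but inside the rule.

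Complement genes that passed the rule were all higher. C3, the protein on which the complement pathways converge, stood at 5.83 RPKM in wild type against 46.3 in Mll1-/- (controls 2.23 and 30.7), 7.93-fold higher (7.37 to 8.55). C1s1, a protease of the classical pathway, stood at 1.72 and 8.79 RPKM, and its partner C1ra at 8.55 and 11.6, inside the rule. Clu (clusterin), an inhibitor of the terminal complex, stood at 0.237 and 4.33 RPKM, 18.2-fold higher (10.1 to 36.1). C3ar1, the receptor of the C3a fragment, stood at 3.30 and 1.46 RPKM, a log2 ratio of -0.96.

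Matrix metalloproteinases and Timps were higher in 6 and lower in 2 of 14 cases. Mmp2 (gelatinase A) stood at 44.2 RPKM in wild type against 0.405 in Mll1-/- (controls 48.3 and 0.406), 109-fold lower (73.3 to 171). Its membrane-bound activator Mmp14 stood at 36.8 and 17.6 RPKM, 2.09-fold lower (1.94 to 2.26). The stromelysins were the reverse. Mmp3 stood at 0.327 and 42.5 RPKM (controls 0.0388 and 24.98), 129.9-fold higher (80.9 to 224), and Mmp10 at 1.43 and 36.4 (controls 0.231 and 19.2), 25.4-fold higher (19.9 to 32.9). Mmp13, a collagenase, stood at 1.14 and 8.48 RPKM and Mmp9 (gelatinase B) at 0.135 and 1.11, both higher. Among the inhibitors, Timp3 stood at 59.9 and 203 RPKM, 3.40-fold higher (3.31 to 3.49), while Timp1 (116 and 105 RPKM) and Timp2 (134.5 and 184) were inside the rule.

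Other extracellular proteases were higher in 6 of 20 cases. Htra1, a serine protease of the matrix, stood at 0.906 RPKM in wild type against 24.6 in Mll1-/-, 27.1-fold higher (20.5 to 36.6). Adamts2, which trims procollagens, stood at 0.0382 and 2.77 RPKM, and Adamts9, a versican-cleaving protease, at 0.0295 and 1.93. Ctsl (cathepsin L) was the most abundant of the list in Mll1-/-, at 149 and 319.6 RPKM. Adam17, which sheds TNF and its receptors from the surface, stood at 25.7 and 29.5 RPKM and did not pass the rule.

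In the coagulation and plasminogen list, 5 of 12 genes were higher and 1 lower. Thbd (thrombomodulin), the thrombin receptor that starts the protein C pathway, had 2310 reads in wild type with TNF (22.2 RPKM) and 0 in Mll1-/-. It was at least 531-fold lower, and the Mll1-/- control also held 0 reads. F3 (tissue factor), the starter of coagulation, stood at 12.3 and 29.2 RPKM, 2.37-fold higher (2.15 to 2.62). Plau, the urokinase that activates plasminogen, stood at 21.4 and 59.4 RPKM, 2.77-fold higher (2.60 to 2.96). Its receptor Plaur (50.5 and 61.0 RPKM) was inside the rule, and the inhibitors Serpine2 (11.5 and 29.8) and Serpinb2 (1.06 and 5.76) were higher. Serpinf1, an inhibitor of vessel growth, stood at 1.93 and 24.4 RPKM, 12.6-fold higher (10.0 to 16.1).

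Among 10 measured collagens of these lists, 4 were higher and 2 lower. The type I and III collagens, which form interstitial fibrils, were higher in Mll1-/-, and the beaded-filament collagens were lower. Col1a1 stood at 92.5 RPKM in wild type against 295 in Mll1-/-, 3.19-fold higher (3.12 to 3.26), and Col1a2 at 25.9 and 170.1, 6.57-fold higher (6.34 to 6.81). Col3a1 stood at 0.296 and 23.5 RPKM, 79.7-fold higher (59.6 to 109). The beaded-filament chains Col6a1 (81.6 and 14.03 RPKM) and Col6a2 (49.3 and 7.15) were 5.81-fold and 6.90-fold lower. Col5a1 and Col5a2, which start fibrils, were inside the rule. Summed over 10 measured genes, the list came to 326 RPKM in wild type and 576.5 in Mll1-/-.

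Among small leucine-rich proteoglycans, Bgn and Dcn, which both bind collagen and growth factors, were opposite. Bgn (biglycan) stood at 545 RPKM in wild type against 5.90 in Mll1-/- (controls 582 and 5.71), 92.4-fold lower (82.0 to 104.5). Dcn (decorin) had 0 reads in wild type, with or without TNF, and 554 in Mll1-/- with TNF (15.2 RPKM), at least 268-fold higher. Ogn, another member of the family, stood at 19.3 and 7.32 RPKM, 2.64-fold lower (2.35 to 2.98). The cell-surface syndecan Sdc3 stood at 8.58 and 22.97 RPKM and was higher, whereas Sdc1, Sdc2 and Sdc4 were inside the rule. Over the list, 4 of 16 were higher and 2 lower, and the summed level was 884 RPKM in wild type and 391 in Mll1-/-.

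Matrix glycoproteins were higher in 8 and lower in 4 of 33 cases. Mgp, an inhibitor of calcification, stood at 52.5 RPKM in wild type (901 reads) against 0.253 in Mll1-/- (3 reads), a wild type to Mll1-/- ratio of 207 (70.7 to 1007). Efemp1, an elastic-fibre protein, had 1270 and 3 reads, the same ratio being 292 (99.7 to 1418). Tgfbi, a TGF-beta-induced adhesion protein, had 625 and 2 reads, the ratio being 216 (59.5 to 1785). Fbln5, which assembles elastin, stood at 6.13 and 1.13 RPKM, 5.43-fold lower (4.51 to 6.59). These 4 lower genes were also lower in the controls.

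Fn1 (fibronectin) stood at 63.3 RPKM in wild type against 158 in Mll1-/-, 2.49-fold (2.44 to 2.54). Tnc (tenascin C), which is deposited in wounds, stood at 6.77 and 25.3 RPKM, and Thbs1 (thrombospondin) at 51.2 and 129.7. Of 10 integrin subunits 4 were higher and 1 lower. The fibronectin receptor subunit Itga5 stood at 22.2 and 67.6 RPKM, 3.04-fold higher (2.91 to 3.19). Its partner Itgb1 (167 and 234 RPKM) was inside the rule, and Itgb3, which pairs with Itgav to bind vitronectin, stood at 1.65 and 6.85. Itgb7, known from gut-homing lymphocytes, was the lower integrin, at 53.9 and 7.36 RPKM, 7.32-fold (6.59 to 8.15). Of the basement membrane proteins, Lama5 (5.44 and 17.4 RPKM), Col18a1 (24.7 and 61.3) and Lamc1 (17.4 and 35.8) were higher, and Col4a1 (78.7 and 46.8) stayed inside the rule.

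Growth factors were higher in 11 and lower in 3 of 33 cases. Angpt1, which steadies vessels through the receptor Tek, stood at 15.4 RPKM in wild type against 1.02 in Mll1-/-, 15.2-fold lower (12.1 to 19.2), whereas Angpt2, its antagonist, stood at 0.592 and 3.12, 5.27-fold higher (3.71 to 7.64). Tek had 0 reads in wild type with TNF and 1 in Mll1-/-. Pdgfb, the ligand of Pdgfrb, stood at 0.133 and 8.50 RPKM, 63.9-fold higher (35.4 to 129), while Pdgfa stood at 38.4 and 24.4. Rspo3, which strengthens Wnt signals, stood at 0.267 and 21.0 RPKM, 78.5-fold higher (49.4 to 133).

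Several peptide factors were close to or at 0 reads in wild type with TNF. Edn1 (endothelin), a vasoconstrictor, had 0 reads in wild type and 104 in Mll1-/-, at least 50.2-fold higher. Artn, a neurotrophic ligand of the GDNF family, had 0 and 101 reads, at least 48.8-fold higher. Stc2, a secreted glycoprotein hormone, had 0 and 92 reads, at least 44.4-fold higher. Hgf, the ligand of Met, had 1 and 68 reads, a ratio of 98.5 (17.1 to 3949), and Met itself stood at 38.9 and 19.8 RPKM, a log2 ratio of -0.96. The epidermal growth factor ligands differed, with Areg at 1.64 and 13.95 RPKM, Ereg at 17.3 and 11.3 and Hbegf at 28.2 and 23.8. Of these Areg passed the rule, at 8.51-fold (6.38 to 11.5). Fgf10 (8.66 and 3.48 RPKM) and the guidance factor Sema3c (60.2 and 28.4) were lower, and Vegfa (8.63 and 14.1) was inside the rule.

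Wnt ligands, BMPs and their antagonists were higher in 5 and lower in 4 of 19 cases. Wnt4 stood at 2.95 RPKM in wild type against 0.282 in Mll1-/-, 10.5-fold lower (6.92 to 16.6), and Wnt7b (1.23 and 0.0764) and Wnt9a (1.64 and 0.265) were lower too. Sfrp2, a secreted Wnt antagonist, had 86 reads and 1 read. Wnt5a, a ligand of the Ror receptors, was higher at 1.89 and 4.87 RPKM, and its receptor Ror2 stood at 0.135 and 3.94, 29.3-fold higher (17.5 to 53.0). Bmp6 stood at 0.0890 and 5.57 RPKM, 62.6-fold higher (28.4 to 172), and Bmp4 at 4.95 and 16.9, 3.41-fold higher (2.96 to 3.94). The BMP antagonist Nog had 2 and 39 reads, and the activin antagonist Fstl3 had 0 and 73. Tgfb1 (11.1 and 11.9 RPKM), Tgfb2 and Tgfb3 were inside the rule.

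Growth factor receptors, the largest list, had 13 of 54 genes higher and 3 lower. Notch3, a receptor of mural cells, stood at 2.82 RPKM in wild type against 0.228 in Mll1-/-, 12.4-fold lower (8.79 to 17.9). Notch2 stood at 4.79 and 12.2 RPKM, 2.55-fold higher (2.39 to 2.73), and the Notch ligand Jag1 had 1 and 214 reads. Igf2r, which clears IGF2 and sorts lysosomal enzymes, stood at 3.97 and 26.4 RPKM, 6.65-fold higher (6.21 to 7.13). The ephrin Efna1 stood at 0.169 and 6.43 RPKM, the ephrin receptor Ephb2 at 0.0374 and 1.78, and Epha7 at 2.38 and 0.331. Axl (131 and 120.3 RPKM), Egfr (12.2 and 12.9) and Igf1r (5.62 and 5.26) were inside the rule, as were the TGF-beta receptors Tgfbr1 and Tgfbr2.

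The control libraries give the same ratio without TNF from 2 other libraries. There, 813 of 11006 measured genes were higher in Mll1-/- (7.39%) and 773 were lower (7.02%). The length correction was run on the TNF pair only, so whether the control ratios depended on transcript length was not tested. Of the 108 secreted and surface genes that were higher with TNF, 94 (87.0%) were also higher without it, which is 92.2% of the 102 higher there. Of the 42 lower genes, 31 (73.8%) were also lower without TNF, which is 56.4% of the 55 lower there. No secreted or surface gene passed the rule in opposite directions. Over all genes, 83.4% of the higher and 83.8% of the lower genes with TNF were also past the rule the same way without it, which is 81.1% of the higher and 53.7% of the lower genes there, and 4 genes passed in opposite directions. Among the 150 genes past the rule with TNF, 7 had log2 ratios, with 0.5 RPKM added, that differed by 1 or more between the 2 states. From the reads alone, 137 of the 150 had reads in all 4 libraries. For 23 of these the difference was 1 or more in size, and for 15 of the 23 an approximate interval left out 0. These counts of differences were not made over all genes, so they do not show whether secreted and surface genes moved more often than others.

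The 7 genes were 3 chemokines, 2 acute-phase proteins, an adhesion molecule and an innate receptor. The log2 ratio of Ccl20 was -4.25 with TNF and -1.47 without, that of Cxcl5 -4.49 and -3.36, and that of Cxcl1 -2.23 and -0.98. For Lcn2 it was -1.23 and 0.03, and for Serpina3g -1.86 and -0.18. In these 5 genes Mll1-/- was below wild type with TNF, and the log2 ratio was lower than without TNF. Vcam1 was higher in Mll1-/- in both states, less so with TNF, at 1.43 with TNF and 3.42 without. Tlr2 stood at 3.15 and 1.86. The difference between the 2 log2 ratios was also taken from the reads. Its interval is a normal approximation that covers counting error only and is rough where few reads were counted. The difference was -1.96 for Ccl20 (interval -3.38 to -0.55), -0.88 for Cxcl5 (-1.26 to -0.50), -1.21 for Cxcl1 (-1.48 to -0.95) and -1.33 for Lcn2 (-2.02 to -0.63). It was -2.69 for Serpina3g (-4.42 to -0.95) and -2.39 for Vcam1 (-2.67 to -2.12), and Tlr2 had 0 reads in the wild-type control. Low genes that moved by 1 or more only from the reads included proteases: Mmp3 was 643-fold higher in Mll1-/- without TNF and 129.9-fold with it (difference -2.31, -4.43 to -0.19), and Mmp10 83.2-fold and 25.4-fold (-1.71, -2.64 to -0.78). Mmp13 moved likewise (-1.62, -2.60 to -0.64), as did the receptor Il13ra2 (-3.89, -6.81 to -0.97). Ccn5, on the matrix glycoprotein list, moved the other way from the reads (1.65, 0.77 to 2.52). Since each value is 1 library, these differences were not tested between conditions.

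**Figure D4:**
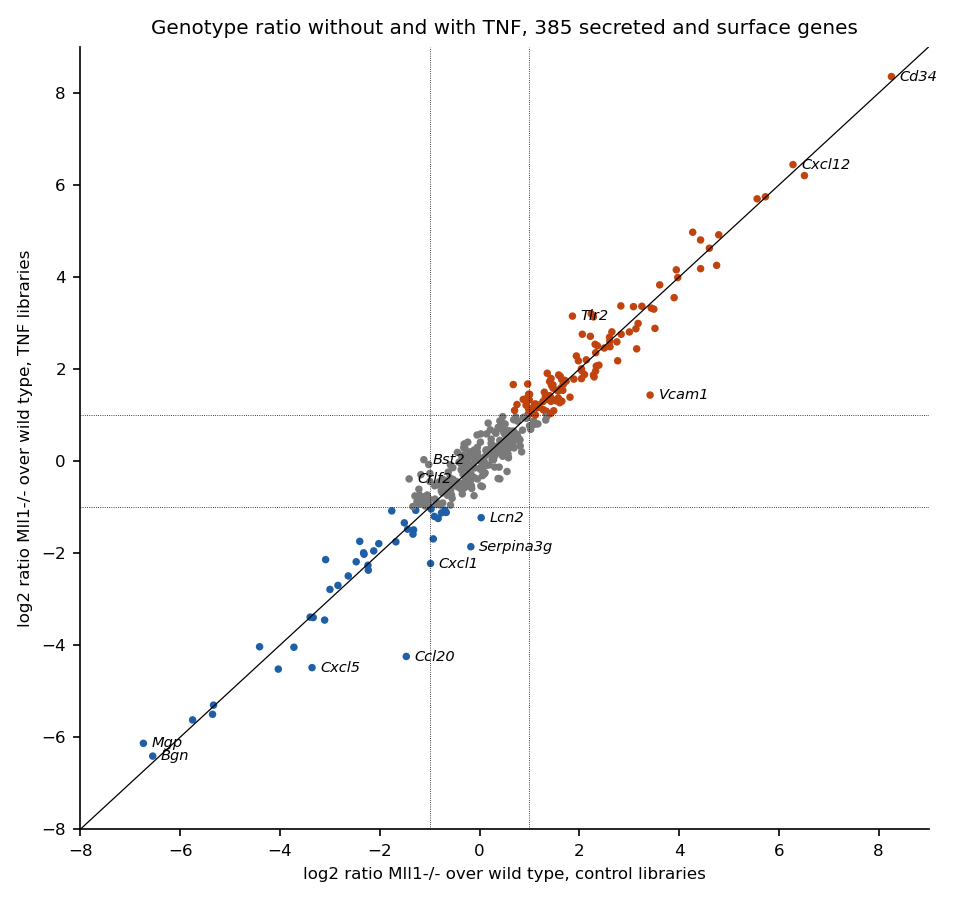
Each of 385 points is a secreted or surface gene, placed by its log2 ratio of Mll1-/- to wild type in the control libraries (horizontal) and in the TNF libraries (vertical), coloured orange if higher and blue if lower with TNF. The solid line is equality and dotted lines mark -1 and 1. Most points lie along the line, and Ccl20, Cxcl1, Cxcl5, Lcn2, Serpina3g and Vcam1 lie below it by at least 1, whereas Tlr2, Bst2 and Crlf2 lie above it by as much.

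Ccl2 and Ccl7 were past the rule with TNF and not without it, but their ratios moved less, from -0.76 to -1.13 for Ccl2 and from -0.83 to -1.25 for Ccl7. Conversely Mif (-1.18 without TNF and -0.30 with it), Spp1 (-1.05 and -0.74) and Lgals3 (-1.21 and -0.93) were past the rule only in the controls. The part of transcript length in these shifts was not tested. Cd34 (8.26 without TNF and 8.36 with it), Cxcl12 (6.28 and 6.44), Bgn (-6.55 and -6.41) and Mmp2 (-5.75 and -5.63) had nearly the same log2 ratio in both states. Dcn moved from 4.27 to 4.97 and Mgp from -6.74 to -6.14, both with 3 or fewer reads in a library of each state.

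In abundance, 11 genes were among the 15 highest secreted and surface transcripts of both TNF libraries. These 15 made up 58.5% of the summed level in wild type and 49.7% in Mll1-/-. Bgn, Ccl7, Cxcl5 and Cxcl1 were on the wild-type list only, and Ctsl, Col1a1, Cd34 and Itgb1 on the Mll1-/- list only. Spp1, Ccl2 and Mif followed Lgals1 at the head of both lists. At the edges of the level floor, Cfb (1.07 RPKM), Mmp9 (1.11) and Npnt (1.13) lay just inside, and Cfp (0.938), Itga1 (0.935) and Efnb1 (0.922) just outside. At the edges of the size rule, Fzd8 (1.0025), Ly96 (1.01) and Lamc1 (1.02) lay just past it, and Mmp24 (-0.99), Mertk (0.98) and Lepr (-0.98) just short.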

How the data were processed

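RNA of 4 libraries was sequenced. The authors deposited 1 table of RPKM values for 27344 transcript entries, per the file headers. TopHat and DESeq are named in the submitters' processing notes, with no version or role. Not given in the sources used here are the build, the annotation, the counting program and the use of strand, so overlapping antisense genes cannot be separated. Entries were named through RefSeq (20849) or GENCODE M21 (102), and 6393 without a symbol were left out.

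Whole reads were recovered from the RPKM steps within 0.0001 reads (for large counts, within the precision of the deposited digits) for all entries (100.0%). They summed to between 1.669 and 1.77 times the library totals. Lengths were searched for as the smallest that gave whole reads, so the share of 100.0% is no check of them. Of 20661 entries with a GENCODE length, 78.9% had a recovered length within 10% of it. For the others the lengths, and with them the read numbers, are less sure. With 1 library per group no count test was run. Ratios are log2 of RPKM plus 0.5, which understates changes of low genes. Exact Clopper-Pearson intervals at 95% of the ratio between 2 libraries used the reads, with 3 reads standing for 0, and cover counting error only. Intervals of the difference between the log2 ratios with and without TNF were normal approximations from the reads. They too cover counting error only, and they are rough where a library held few reads. The scripts (Python 3.11.15, numpy 2.4.6, scipy 1.17.1, pandas 2.3.3, statsmodels 0.14.6) were tested on simulated data.

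The members and lists were chosen with earlier results of these data known. Genes were named by rules: the 15 highest and 15 lowest ratios with at least 3 RPKM, up to 4 from each end and the 3 most abundant of each list, the 15 most abundant per library, the 10 extremes of all symbols on each side, up to 10 abundant genes within 0.1 of 0, Kmt2a, and partner receptors and ligands. Tagln, Acta2, Des, Actc1, Fabp4, Icam1, Tnf, Cxcl2, Ccn5 and the further genes given as being inside the size rule were chosen after their values were seen. Alternatives were other pseudocounts, scalings, floors, size rules, entry choices and a length correction. Unnamed entries were counted in an alternative chosen after seeing the data.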

Additional observations from a re-analysis of the deposited data

How the results depend on the processing

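At a log2 ratio of 2 or more, 47 secreted and surface genes were higher and 22 lower, and over all genes 278 were higher and 127 lower. Under the other alternatives (pseudocounts, scalings, length correction, floors, entry choice, counting interval), the secreted and surface genes numbered 84 to 114 higher and 31 to 50 lower, and all genes 540 to 901 higher and 359 to 601 lower. With unnamed entries counted, an alternative added after seeing the data, 948 were higher and 627 lower. Of 416 list counts, 17 moved by over 1.5 times or to or from 0. Single ratios were rerun only for the 30 secreted and surface genes with the most extreme ratios. Of their 180 ratios, none reversed and 21 moved by more than the counting interval, counting any change for genes with 0 reads. These 30 genes stayed past the size rule in every setting run. They were picked for the size of their ratios, so this says nothing of named genes nearer the rule, which were not checked singly. The scalings put the median of all genes between -0.04 and 0.00. No paired analysis was possible because the groups share only 1 replicate number, and a fit of genotype within treatment over the 4 libraries was not run.

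Depth limits the ratios with few reads: with 0 to 3 reads in 1 library (for example Thbd, Pdpn, Dcn, Mgp, Efemp1, Tgfbi, L1cam, F11r, Tlr2), the size of the ratio is known only as a bound or a wide interval.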

Other observations

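Outside the secreted and surface lists, the extremes of all measured genes with TNF included enzymes and stress proteins. Pcbd1, which recycles the pterin cofactor of aromatic amino acid hydroxylases, had 1856 reads in wild type and 0 in Mll1-/-, at least 427-fold lower. Sprr1a, a precursor of the cornified envelope, had 1806 and 0 reads, at least 415-fold lower. Smpdl3b, a membrane phosphodiesterase, had 1123 and 0 reads, and Ldhb, a lactate dehydrogenase subunit, 665 and 0. All 4 had at most 1 read in the Mll1-/- control as well. Selenop, a secreted selenium carrier that is on no list used here, stood at 113.6 RPKM in wild type against 0.408 in Mll1-/-, 278-fold lower (interval 171 to 487).

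On the other side, the small heat shock protein Hspb1 had 0 reads in wild type and 559 in Mll1-/-, at least 270.0-fold higher. Ckb, the brain-type creatine kinase, stood at 0.169 and 41.3 RPKM, 244-fold higher (118 to 608). Tgm2, a protein cross-linking transglutaminase, stood at 0.0906 and 30.1 RPKM, 332-fold higher (175 to 727.5). Olfm1, a secreted glycoprotein, stood at 0.0532 and 27.3 RPKM. Ramp3, a co-receptor for adrenomedullin, had 1 read in wild type and 811 in Mll1-/-, a ratio of 1175 (210.3 to 46480). None of these values has a replicate.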
